A study of Homo sapiens with 6 samples.

Results

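The 7 genes described here encode the SREBP transcription factors and the proteins that sense sterols for them and release them from membranes. They were taken by name (SREBF1, SREBF2, SCAP, INSIG1, INSIG2, MBTPS1 and MBTPS2), and every probe set annotated to them was used, which gave 16 of the 54675 probe sets on the array. Of these, 15 are annotated to a member alone and 1 is shared by MBTPS2 and YY2. By gene they are 7 of the 19775 genes that have a probe set of their own.

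SREBP-1 and SREBP-2 are made as precursors held in the membrane of the endoplasmic reticulum, bound to the escort protein SCAP. When membrane sterol is ample, SCAP is retained there by INSIG-1 or INSIG-2. When sterol is scarce, SCAP carries the precursor to the Golgi, where the site-1 protease and then the site-2 protease (products of MBTPS1 and MBTPS2) release the part that enters the nucleus. SREBP-2 is known mainly for switching on cholesterol synthesis and uptake genes and SREBP-1 for fatty acid genes. SREBF1, SREBF2 and INSIG1 are themselves known target genes of the factors.

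Transcript levels were read on 6 Affymetrix HG-U133 Plus 2.0 arrays of the 1833 cell line, a bone-seeking derivative of the human breast cancer line MDA-MB-231. The 3 control arrays are of cells with the vector, and the 3 others are of cells transduced with a lentiviral vector for S153E-RKIP. The protocol text, which is the same for all 6 samples, speaks of 0.5 µg/ml puromycin for the RKIP cells, and does not say whether the vector controls were kept in it. RKIP, the product of PEBP1, restrains Raf-1, and S153E is a mutant that the series describes as more potent. All cells grew in DMEM with 10% serum. Their source name mentions an HMGA2 shRNA for the S153E-RKIP samples, while title, description and characteristics name S153E-RKIP. The labels call the samples biological replicates with no more detail, so the tests weigh differences against the spread among these arrays, and that spread may be technical. In bulk samples fewer cells of a type and less RNA per cell cannot be told apart. Values are log2 RMA signals, and every difference is S153E-RKIP minus control.

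The genes that would check the labels did not do so. PEBP1 lay between 11.73 and 11.77 in control and between 11.61 and 11.74 in the arrays labelled S153E-RKIP (difference -0.093, limma adjusted p = 0.473), and whether its probe sets can read the introduced RKIP sequence is not known here. HMGA2 had a difference of -0.023 (limma adjusted p = 0.882). Every direction below therefore rests on the label S153E-RKIP. VIM, CD44, AXL and CAV1, which mark this mesenchymal line, had mean levels from 12.30 to 14.44, while of the hormone receptor and epithelial markers PGR and CDH1 were low (control means 4.02 and 4.14), ESR1 was near the median of all genes (6.60 against 6.64) and EPCAM was above it (8.30). Of 4 blood cell markers 0 were called, but their mean level was 5.36 to 5.43 in control and 5.49 to 5.61 in the arrays labelled S153E-RKIP. The mean of 4 fibroblast and osteoblast markers, 0 of them called, was 5.62 to 5.63 in control and 5.64 to 5.80 in S153E-RKIP, also without overlap, and COL1A1 had a difference of 0.21 (limma adjusted p = 0.215). The part of both lists in the results was not tested. S153E-RKIP replicate 1 stood apart from replicates 2 and 3 on the second principal component (21.6% of the variance). The number of arrays limits the precision, with a median standard error of 0.072 for a log2 fold change.

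On the arrays labelled S153E-RKIP the transcripts of both SREBP factors and of INSIG1 were lower, and none of the 7 genes was called higher. INSIG1 fell 6.37-fold, SREBF2 1.58-fold and SREBF1 1.52-fold, each read by its brightest probe set (the one with the highest mean over the 6 arrays; n = 3 per group). SCAP, INSIG2, MBTPS1 and MBTPS2 were not called, with differences from -0.11 to 0.027. A gene was called where the adjusted p of limma's moderated test over all 19775 genes was under 0.05. By that rule 3 of the 7 genes were called lower, where 1.9% of all genes were called in either direction (136 higher and 240 lower) and 1.21% were called lower. The call of SREBF1 was lost in 8 of 17 alternative settings. Probe sets 1558875_at of SREBF1 and 242748_at of SREBF2 did not read the fall (differences 0.0074 and 0.059). After setting all array medians equal, the split over all genes was 116 higher and 355 lower. After quantile normalisation again it was 151 higher and 183 lower, and after loess on intensity 126 higher and 183 lower.

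**Figure D1:**
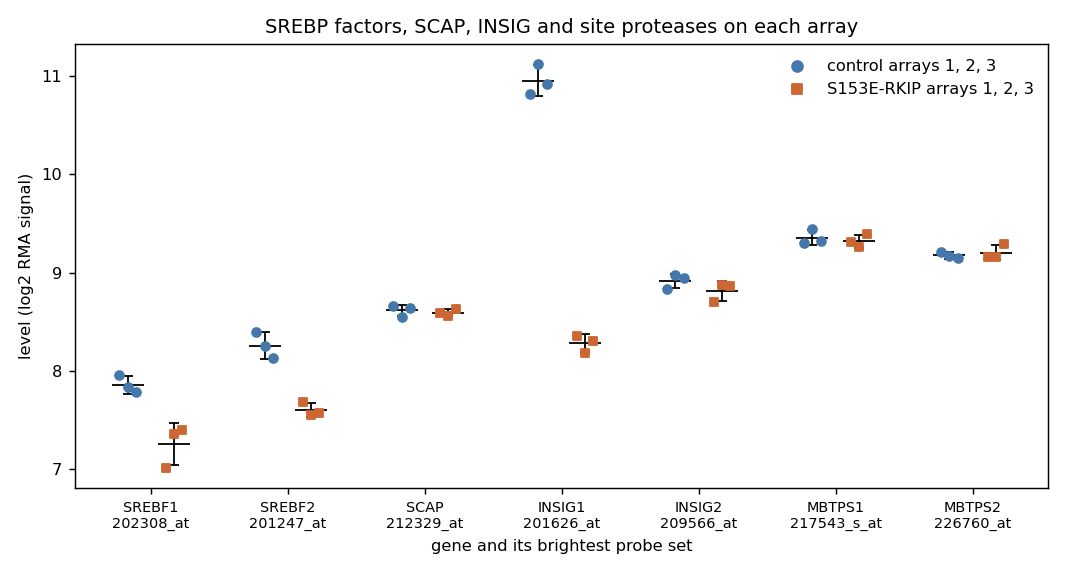
Level of each of the 7 genes on each array (vertical axis, log2 RMA signal), read by the brightest probe set named under the gene. Circles are control arrays and squares S153E-RKIP arrays in replicate order from left to right, and the black bars are mean and SD (n = 3). The groups lie apart for SREBF1, SREBF2 and INSIG1, where INSIG1 goes from 10.95 to 8.28, and overlap for the other 4. Heights of different genes are readings of different probes and are not comparable.

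The promoters of the members that fell, and of INSIG2 as the paralog of INSIG1 that was not called, are shown because SREBF2 and INSIG1 are known to be controlled by the factors they encode or regulate. Each is the 250 bases before the annotated start of transcription, 5′ to 3′ on the gene's strand, from RefSeq. All 7 members matched this table, INSIG2 with 2 windows, of which the one at the annotated gene start was used. The window of SCAP (chr3:47475942-47476191), not shown, lies inside the annotated gene and not before its outermost start. Capitals mark matches to TCACNCCAC (a form of the sterol regulatory element), TCACNTGA (an E-box with its flanks) and CCAAT (the CCAAT box, ATTGG when read on the other strand). None of these matches overlaps another of these motifs.
SREBF1 (GRCh38.p14, chr17:17836987-17837236, minus strand): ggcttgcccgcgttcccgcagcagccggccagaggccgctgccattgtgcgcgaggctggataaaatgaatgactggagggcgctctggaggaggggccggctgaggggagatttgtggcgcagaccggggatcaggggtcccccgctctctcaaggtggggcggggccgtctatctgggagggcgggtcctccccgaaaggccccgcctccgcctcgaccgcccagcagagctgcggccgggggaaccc
SREBF2 (GRCh38.p14, chr22:41832855-41833104, plus strand): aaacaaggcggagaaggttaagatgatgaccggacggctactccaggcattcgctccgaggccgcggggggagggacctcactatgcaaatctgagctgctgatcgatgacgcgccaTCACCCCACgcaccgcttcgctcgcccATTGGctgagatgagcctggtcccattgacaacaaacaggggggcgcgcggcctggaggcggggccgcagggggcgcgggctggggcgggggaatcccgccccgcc
INSIG1 (GRCh38.p14, chr7:155297628-155297877, plus strand): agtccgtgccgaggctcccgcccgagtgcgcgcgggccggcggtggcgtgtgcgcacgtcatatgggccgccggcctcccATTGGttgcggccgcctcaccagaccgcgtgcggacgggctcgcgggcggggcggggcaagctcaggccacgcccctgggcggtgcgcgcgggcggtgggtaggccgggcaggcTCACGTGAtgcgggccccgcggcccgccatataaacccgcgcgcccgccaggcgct
INSIG2 (GRCh38.p14, chr2:118088221-118088470, plus strand): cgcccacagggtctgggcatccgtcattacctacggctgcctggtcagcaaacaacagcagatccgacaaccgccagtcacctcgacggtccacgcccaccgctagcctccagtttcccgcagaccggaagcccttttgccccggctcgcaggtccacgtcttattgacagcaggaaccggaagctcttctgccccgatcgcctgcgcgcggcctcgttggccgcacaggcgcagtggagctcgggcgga

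TCACNCCAC was found once in the windows of the 7 members, in SREBF2, from 133 to 125 bases before the start. For SREBF1 only 1 window was searched, so a promoter at another start of that gene was not read. Of all 35116 promoter windows of the same length, 0.883% hold it on either strand. SREBF2 also has a CCAAT box on the other strand, 106 to 102 bases before the start, as INSIG1 has at 170 to 166. CCAAT occurs in 32.0% of all windows. INSIG1 alone among the 7 holds TCACNTGA, at 56 to 49 bases before the start, where TCACGTGA reads the same on both strands. That motif occurs in 3.2% of all windows. The GC box GGGCGG, in 42.6% of all windows and not set in capitals, matched 5 times in INSIG1, 3 times in SREBF1 and SCAP, 2 times in SREBF2 and once in INSIG2, and had no match in MBTPS1 or MBTPS2. In INSIG1 a pair of its matches overlaps by a base. Such matches are descriptions of letters and not measured sites.

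Both SREBF genes also hold a miR-33 gene within their bounds, a microRNA family known for limiting ABCA1 and cholesterol efflux. The mature forms are shown with the seed (bases 2 to 8) in capitals, since the loci that fell carry the same seed. The array values of SREBF1 and SREBF2 are of the host transcripts and say nothing of the mature microRNAs. ABCA1 was measured in the list of LXR targets below and was not called (log2 fold change -0.20, SE 0.40, limma adjusted p = 0.843). Its reading was imprecise, with a 95% confidence interval from -1.11 to 0.72.
hsa-miR-33a-5p (GRCh38.p14, chr22:41900949-41900969, plus strand, inside SREBF2): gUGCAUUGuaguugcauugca
hsa-miR-33b-5p (GRCh38.p14, chr17:17813897-17813916, minus strand, inside SREBF1): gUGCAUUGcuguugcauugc

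INSIG1 encodes the INSIG protein whose transcript is known to rise and fall with SREBP activity. The gene lies on chromosome 7 (GRCh38.p14, chr7:155297878-155310235). Its brightest probe set, 201626_at, read 10.82, 11.12 and 10.92 on control arrays 1, 2 and 3, against 8.36, 8.18 and 8.30 on the S153E-RKIP arrays in the same order. Every S153E-RKIP array lay more than 2 log2 units below every control array, and the replicates of a group stayed close to each other. The log2 fold change was -2.67 (SE 0.088, limma adjusted p = 8.04e-06, 95% confidence interval -2.87 to -2.47). By p-value INSIG1 ranked 2 among the 19775 genes, and by size it ranked 2 among the falls, after SCD. Falls of at least 2-fold were seen in 0.121% of genes.

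All 3 probe sets of INSIG1 read the fall. Probe set 201627_s_at went from 9.96, 10.09 and 9.95 in control to 7.64, 7.44 and 7.53 (log2 fold change -2.46, SE 0.075, adjusted p over all probe sets = 2.47e-06). Probe set 201625_s_at went from 8.79, 9.06 and 8.89 to 6.72, 6.61 and 6.73 (log2 fold change -2.23, SE 0.082, adjusted p = 7.33e-06). The folds were thus 6.37, 5.51 and 4.68, in the order of the probe sets' brightness. Set against the brightest within each array, the other probe sets fell less. The brightest minus 201625_s_at was 2.04 ± 0.018 in control and 1.59 ± 0.041 in S153E-RKIP (SD, n = 3 each), a difference of -0.44. For 201627_s_at that difference was -0.21. In neither case did the groups overlap (exact permutation test over arrays, two-sided p = 0.1, the smallest that 3 against 3 allows).

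INSIG2 encodes the other INSIG protein and lies on chromosome 2 (GRCh38.p14, chr2:118088471-118110997). Its only probe set, 209566_at, read 8.84, 8.97 and 8.95 on the control arrays, against 8.70, 8.88 and 8.87 on the S153E-RKIP arrays. The groups overlapped, and S153E-RKIP replicate 1 was the lowest array. The log2 fold change was -0.11 (SE 0.071, limma adjusted p = 0.500, 95% confidence interval -0.27 to 0.057), so a fall of up to 1.20-fold lies within the interval. The change of INSIG1 was tested against that of INSIG2 on each array. INSIG1 minus INSIG2 went from 2.03 ± 0.098 to -0.53 ± 0.18 (SD, n = 3 each), a difference of -2.57 with no overlap (exact permutation test, two-sided p = 0.1, again the smallest possible).

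SREBF2, which encodes SREBP-2, lies on chromosome 22 (GRCh38.p14, chr22:41833105-41907305). Its brightest probe set, 201247_at, read 8.40, 8.25 and 8.13 on control arrays 1, 2 and 3, against 7.68, 7.55 and 7.57 on the S153E-RKIP arrays in the same order. All S153E-RKIP arrays were below all control arrays. The log2 fold change was -0.66 (SE 0.080, limma adjusted p = 0.00503, 95% confidence interval -0.84 to -0.48). Probe set 201248_s_at went from 7.94, 7.79 and 7.68 to 7.22, 7.23 and 7.05 (log2 fold change -0.64, SE 0.085, adjusted p over all probe sets = 0.0104). The brightest minus 201248_s_at changed by -0.022 (exact permutation p = 1), with overlapping groups.

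The third probe set of SREBF2, 242748_at, did not read this fall. It read 7.33, 7.35 and 7.27 on the control arrays, against 7.37, 7.48 and 7.27 on the S153E-RKIP arrays (difference 0.059, SE 0.072, 95% confidence interval -0.10 to 0.22, adjusted p over all probe sets = 0.752). The brightest minus 242748_at went from 0.95 ± 0.11 to 0.23 ± 0.14 (SD, n = 3 each), with no overlap between the groups (exact permutation p = 0.1). The positions of the probe sets within the gene were not given in the sources used here. With the mean of the 3 probe sets the log2 fold change of SREBF2 was -0.41 (limma adjusted p = 0.0177), a smaller size that stayed called.

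SREBF1, which encodes SREBP-1, lies on chromosome 17 (GRCh38.p14, chr17:17811334-17836986). Its brightest probe set, 202308_at, read 7.96, 7.84 and 7.78 on the control arrays, against 7.01, 7.36 and 7.40 on the S153E-RKIP arrays. The groups did not overlap, and S153E-RKIP replicate 1 lay well below the other two. The log2 fold change was -0.60 (SE 0.11, limma adjusted p = 0.0286, 95% confidence interval -0.84 to -0.36). The call was lost without control replicate 1, 2 or 3 (adjusted p = 0.159, 0.113 and 0.101) and without S153E-RKIP replicate 2 or 3 (0.0962 and 0.0569). Without S153E-RKIP replicate 1 it held, with a log2 fold change of -0.48 (limma adjusted p = 0.0287). With the replicate number as a block the adjusted p was 0.0572.

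The other probe set of SREBF1, 1558875_at, was nearly the same on all arrays. It read 6.29, 6.28 and 6.29 on the control arrays, against 6.29, 6.36 and 6.23 on the S153E-RKIP arrays (difference 0.0074, SE 0.061, 95% confidence interval -0.13 to 0.15, adjusted p over all probe sets = 0.971). The brightest minus 1558875_at went from 1.57 ± 0.084 to 0.96 ± 0.22 (SD, n = 3 each), a difference of -0.61 without overlap (exact permutation p = 0.1). With the mean of both probe sets the log2 fold change of SREBF1 was -0.30 and was not called (limma adjusted p = 0.0630). The promoters that give the SREBP-1a and SREBP-1c transcripts are known to differ, and these probe sets were not assigned to either form.

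The mean log2 fold changes of SREBF2 and SREBF1, by their brightest probe sets, were -0.66 and -0.60. SREBF2 minus SREBF1, each by its brightest probe set, was 0.40 ± 0.050 in control and 0.35 ± 0.28 in S153E-RKIP (SD, n = 3 each), a difference of -0.055 (exact permutation p = 0.9). On control arrays 1, 2 and 3 it was 0.44, 0.42 and 0.345. On S153E-RKIP replicate 1 it was 0.67, against 0.19 and 0.17 on replicates 2 and 3, and SREBF1 was lowest on replicate 1. Without S153E-RKIP replicate 1 the difference was -0.22, and a difference between the genes was not detectable at this spread.

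SCAP, the escort and sterol sensor, lies on chromosome 3 (GRCh38.p14, chr3:47413681-47477127). Its only probe set, 212329_at, read 8.66, 8.55 and 8.64 on the control arrays, against 8.59, 8.56 and 8.63 on the S153E-RKIP arrays. The groups overlapped throughout. The log2 fold change was -0.024 (SE 0.058, limma adjusted p = 0.872, 95% confidence interval -0.16 to 0.11), an interval from 0.897-fold to 1.08-fold. SREBF2 minus SCAP fell on the S153E-RKIP arrays by 0.63 with no overlap (exact permutation p = 0.1).

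MBTPS1 (GRCh38.p14, chr16:84053763-84116942) and MBTPS2 (GRCh38.p14, chrX:21839617-21885423) encode the proteases that cut the precursors in turn. Probe set 217543_s_at of MBTPS1 read 9.30, 9.44 and 9.32 on the control arrays, against 9.31, 9.26 and 9.39 on the S153E-RKIP arrays (difference -0.034, SE 0.065, 95% confidence interval -0.18 to 0.11, limma adjusted p = 0.830). Its other probe set, 201620_at, had a difference of 0.043. Probe set 226760_at of MBTPS2 read 9.21, 9.17 and 9.15 on the control arrays, against 9.16, 9.16 and 9.29 on the S153E-RKIP arrays (difference 0.027, SE 0.061, 95% confidence interval -0.11 to 0.17, limma adjusted p = 0.858). For both proteases the groups overlapped on the brightest probe set.

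The dimmer probe sets of MBTPS2 gave no call either. Probe set 206473_at had a difference of 0.0099. Probe set 1554604_at lay at 3.90, 3.93 and 3.83 in control and at 3.97, 4.14 and 3.97 in S153E-RKIP, so that all S153E-RKIP arrays were above control. Its log2 fold change was 0.14 (SE 0.071, adjusted p over all probe sets = 0.431, 95% confidence interval -0.020 to 0.30), at a level far below the median of all probe sets (5.62), where signal over background was not measured. The probe set shared with YY2, 216531_at, had a difference of -0.0086.

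**Figure D2:**
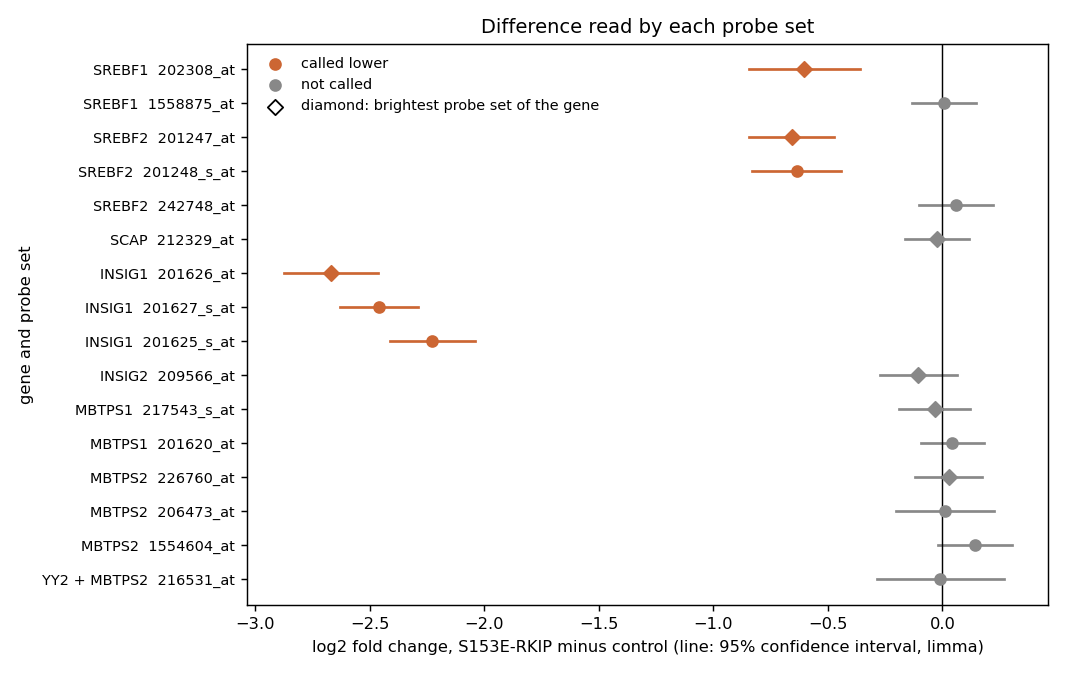
Log2 fold change, S153E-RKIP minus control, of all 16 probe sets annotated to the 7 genes (horizontal axis), with 95% confidence intervals from limma. Diamonds mark the brightest probe set of a gene and colour marks those called lower. The 3 of INSIG1 lie between -2.67 and -2.23, the called ones of SREBF1 and SREBF2 between -0.66 and -0.60, and the others near 0.

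Over probe sets, 6 of the 15 annotated to a member alone were called lower and 0 higher, where 0.685% of all 54613 probe sets tested were called lower. The same 6 were those with all S153E-RKIP arrays below all control arrays, as were 9.06% of all probe sets. The 6 belong to 3 genes, so they are not 6 separate results. Without control replicate 2 or without S153E-RKIP replicate 2 or 3, only 3 were called, those of INSIG1. Of the SREBF2 probe sets, 201247_at then had an adjusted p of 0.0505, 0.0637 and 0.0514. Counted by gene, SREBF2 stayed called whichever array was left out. INSIG1 stayed called under all 17 alternatives tried, with a log2 fold change from -2.74 to -2.45, and so did SREBF2, from -0.72 to -0.41.

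The genes around the 7 were read from lists of known pathway members. In cholesterol synthesis, 18 genes were measured, of which 10 were called lower, none higher and 8 neither. Over all genes, 1.21% were called lower. The median log2 fold change of the list was -0.45, where the median of all genes was 0.010. MSMO1, the sterol methyl oxidase, fell by 1.53 on the log2 scale (SE 0.068), HMGCS1, which makes HMG-CoA, by 1.26 (SE 0.057), DHCR7, the last reductase, by 1.09 (SE 0.056) and IDI1, the isopentenyl diphosphate isomerase, by 1.10 (SE 0.083). The largest limma adjusted p of these 4 was 5.00e-04. Without control replicate 3 the count was 6. Without probe sets ending in _x_at or _s_at, which can pair with several transcripts, it was 5. The called genes ACAT2, IDI1, HSD17B7, SC5D and DHCR7 had been read by such probe sets. In that setting they were read by another probe set or, where they had none, not measured.

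Of 11 measured genes of sterol uptake and transport, 4 were called lower and none higher (median -0.13), where 1.21% of all genes were called lower. STARD4, a sterol carrier, fell by 1.43 (SE 0.087), NPC1 and NPC2, which export cholesterol from lysosomes, fell by 0.56 (SE 0.067) and 0.31 (SE 0.054), and LIPA, the lysosomal acid lipase, fell by 0.47 (SE 0.054). The largest limma adjusted p was 0.0291. On S153E-RKIP replicate 1 the median of the list was 0.051 above the control mean, and on replicates 2 and 3 it was -0.27 and -0.12.

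Of 16 measured genes listed as fatty acid targets of SREBP-1, 6 were called lower and none higher (median -0.20). Of all genes, 1.21% were called lower. SCD, the stearoyl-CoA desaturase, fell by 2.92 (SE 0.18), LPIN1, a phosphatidate phosphatase, by 1.15 (SE 0.10), FASN, the fatty acid synthase, by 0.95 (SE 0.095) and FADS2, a fatty acid desaturase, by 0.72 (SE 0.082). The largest limma adjusted p of these named genes was 0.00422. The other genes called lower, ACACA and ACLY, had limma adjusted p of 0.00885 and 0.0265. Without probe sets ending in _x_at or _s_at the count was 2. The called genes SCD, FASN, FADS2 and ACLY had been read by such probe sets. In that setting they were read by another probe set or, where they had none, not measured. Array by array the median of the list was -0.27, -0.22 and -0.26 on S153E-RKIP replicates 1, 2 and 3.

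LXR receptors answer to oxysterols, and LXR is known to switch on SREBF1. None of 11 measured LXR receptors and targets was called higher (median -0.17). Only LPCAT3, a lysophospholipid acyltransferase, was called lower, by 0.40 (SE 0.066, limma adjusted p = 0.0234). This call was lost without any 1 of 5 arrays and held without S153E-RKIP replicate 2. The share called lower over all genes was 1.21%.

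The machinery that moves, degrades or shares enzymes with the 7 genes' products was not called. This holds for 19 measured genes of the escort and degradation of INSIG and SCAP (median -0.021, 3 at an unadjusted p under 0.05), for 13 of the COPII coat that carries SCAP to the Golgi (median 0.016, 1 at an unadjusted p under 0.05) and for 8 other substrates of the site proteases (median -0.016, 2 at an unadjusted p under 0.05). Of all 19775 genes, 15.7% had an unadjusted p under 0.05. The smallest p in each list was that of RNF145, a ubiquitin ligase (0.39, SE 0.11, limma adjusted p = 0.141), SEC31B, a coat subunit (0.22, SE 0.084, adjusted p = 0.255), and CREB3L2, a membrane-bound factor (-0.25, SE 0.095, adjusted p = 0.261).

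**Figure D3:**
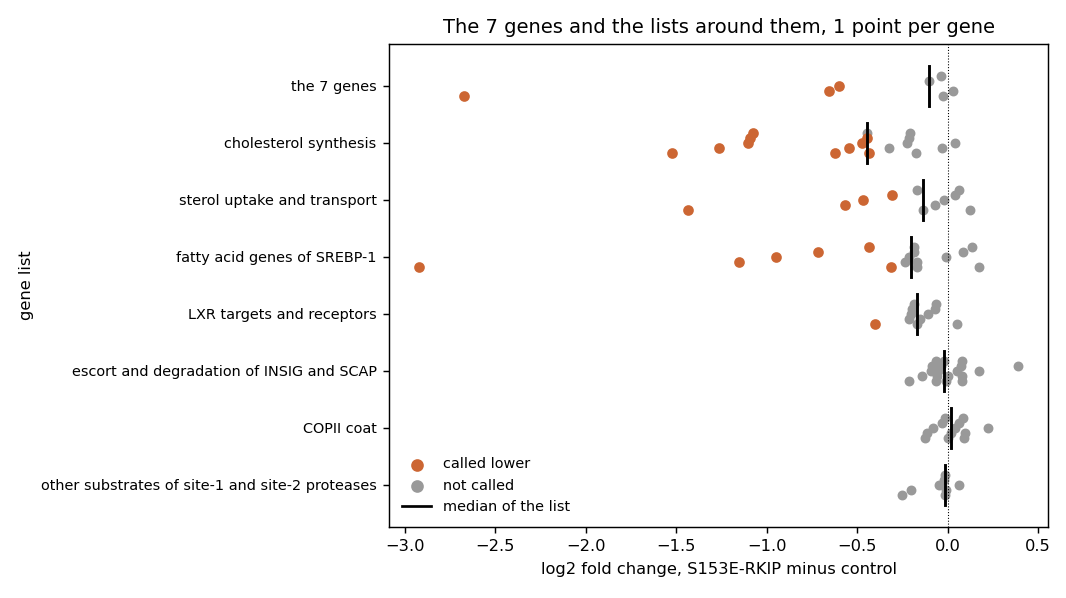
Log2 fold change, S153E-RKIP minus control, of each measured gene (1 point per gene, horizontal axis) for the 7 genes and the 7 lists around them. Coloured points were called lower, grey points were not called, and the black bar is the median of the list. Called genes lie in the top 5 rows, with medians of -0.45 for cholesterol synthesis and 0.016 for the COPII coat.

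The genes whose profiles were most like INSIG1 and SREBF2 were found over the 6 arrays among 9886 genes brighter than the median, as the root mean square distance after setting each gene's control mean to 0. For INSIG1 the nearest was SCD at 0.34, followed by TMEM154 (0.67), MSMO1 (0.82), TENM1, a teneurin (0.82), and STARD4 (0.88). All 5 were called lower, with log2 fold changes from -2.92 to -1.43. For SREBF2 the nearest was LSS, the lanosterol synthase, at 0.061 (log2 fold change -0.62), followed by NEGR1, a neuronal adhesion protein (0.077), CITED2, a transcriptional coregulator (0.079), TBC1D4, a Rab GTPase-activating protein (0.080), and FAT4, an atypical cadherin (0.081). These 5 were called lower too, with log2 fold changes from -0.69 to -0.58. The measure picks genes of like size and says nothing of shared function.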

How the data were processed

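Values were analysed as the authors deposited them, as log2 signals of each probe set on each array. The submitters' processing notes name RMA. RMA's version and the scanner output were not used here, and the sources used here do not name the annotation. RMA normalises arrays together by quantiles, which removes any shift shared by all transcripts. Probe sets were named from the platform annotation, updated through gene identifiers, and 62 control probe sets were left out. A gene was read by its brightest probe set annotated to it alone. The groups, from the sample titles, were compared in limma 3.58.1 (R 4.3.3; lmFit, eBayes, two-sided, Benjamini-Hochberg) over 19775 genes and again over 54613 probe sets, and a call needs an adjusted p under 0.05. The fit was tested on simulated data. Differences between readings used exact permutation tests over arrays.

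The members, lists and tests were chosen with earlier results of these data known, so the lists are no independent evidence of direction. Named were the 7 members, up to 4 called genes with the smallest p per list (otherwise the 1 with the smallest p), and the 5 genes nearest to INSIG1 and to SREBF2. Promoter and microRNA sequences are from RefSeq on GRCh38.p14. Figures were drawn with matplotlib 3.10.9.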

Additional observations from a re-analysis of the deposited data

How the results depend on the processing

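Over the 17 alternatives per gene, INSIG1 and SREBF2 stayed called lower, SREBF1 kept its direction and lost its call in 8, and SCAP, INSIG2, MBTPS1 and MBTPS2 were never called. The sign of the uncalled difference turned in 2 alternatives for SCAP, 5 for MBTPS1 and 2 for MBTPS2. The genes called in all, 376, were 237 without _x_at and _s_at probe sets, 600 with eBayes trend and robust estimation, 147 at an adjusted p under 0.01 and 124 to 303 with 1 array left out. The probe sets called, 574 in all, were 939, 245 and 209 to 450 with the last 3 of these settings, and the members' called probe sets were 3 to 6 with 1 array left out. Cholesterol synthesis had 5 genes called lower without _x_at and _s_at probe sets and 6 to 11 with 1 array left out. The fatty acid list had 2 without _x_at and _s_at probe sets. A gene with no other probe set was not measured in that setting. The LXR list had 0 with the mean of probe sets, after quantile normalisation again and at an adjusted p under 0.01, and 0 to 1 with 1 array left out. Some of these settings use fewer arrays or probe sets, and the cause of these changes was not tested.

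Whether the replicate numbers pair the samples was not settled. Correlations of deviations were 0.13, 0.26 and -0.044 for same-numbered arrays, and ranged from -0.27 to 0.13 for arrays of different numbers. With the replicate block 332 genes were called, and among the members the call of SREBF1 was the only one lost. The other settings (2 dim-gene filters, equal medians, loess on intensity, array weights) kept these counts within 1.5 times. Signal over background was not measured, which limits what the dim probe sets of MBTPS2 show.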
